A study of Mus musculus with 24 samples.

Results

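MicroRNA levels of PYS, an adherent teratocarcinoma line of epithelial-like form, were compared with those of L-1210, a lymphocytic leukaemia line that grows as lymphoblast-like cells in suspension. Both are established mouse cell lines, no treatment is given for either, and every replicate of both lines in the deposited table was taken, 3 a side, with TaqMan cards A and B of a replicate joined. That makes 12 of the 24 deposited samples, or 6 of 12 joined replicates. The other 6 are primary mouse bone marrow (CT-BM) and the M1 leukaemia line, 3 each, which here lend their spread to the fit and serve as a background. Both lines were collected at passage 3. PYS was grown in fetal bovine serum with a stated doubling time of about 24 hours and L-1210 in horse serum with about 50 hours, so line, tissue of origin, medium and growth rate cannot be told apart in this comparison. Each line is 1 line, so the differences are between these lines and not between classes of tumour. The cards held 584 miRNA assays, 517 named for mouse and 67 for rat, and all of them are accounted for below.

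A miRNA is a short RNA that guides Argonaute proteins to partly complementary sites in messenger RNAs and lowers their output, and the pairing is led by its seed, bases 2 to 8. A hairpin precursor can give a mature miRNA from either arm, and the assays for the less abundant arm often carry a star in their names. The miR-290 to miR-295 cluster and the miR-302-367 cluster are the main miRNAs of embryonic stem cells and of undifferentiated teratocarcinoma cells, where they speed the cell cycle, and let-7 miRNAs accumulate as cells leave that state. In blood cells miR-142 marks the whole lineage, miR-155 and miR-146a are induced by immune activation, miR-181a is known from developing lymphocytes, miR-150 and miR-342 from mature lymphocytes and miR-223 from granulocytes. A well reports the threshold cycle (Ct), the PCR cycle at which its signal crosses a threshold, so an earlier Ct means more template.

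The miRNAs on which the comparison turns are shown first, as mature sequences from RefSeq on mouse assembly GRCm38.p6, written 5′ to 3′ with the seed in capitals. A mature sequence was matched for 93 of the 100 mouse assays looked up. The first group came up early in PYS and late or not at all in L-1210, and its members share the seed AAGUGCU although they come from separate clusters on chromosomes 7 and 3.
miR-294: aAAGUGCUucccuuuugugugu
miR-295: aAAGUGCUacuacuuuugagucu
miR-291a-3p: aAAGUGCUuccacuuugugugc
miR-302b: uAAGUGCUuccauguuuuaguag
miR-302d: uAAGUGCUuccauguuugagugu
The miR-17 family carries nearly the same letters moved by 1 base, and it was abundant in both lines.
miR-17: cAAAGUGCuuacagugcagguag
miR-20a: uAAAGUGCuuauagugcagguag
miR-106a: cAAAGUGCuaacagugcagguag
miR-93: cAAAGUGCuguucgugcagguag
The let-7 family shares the seed GAGGUAG, and its members were lower in PYS to very unequal degrees.
let-7a: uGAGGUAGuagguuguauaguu
let-7f: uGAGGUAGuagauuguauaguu
let-7c: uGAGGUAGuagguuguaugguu
let-7i: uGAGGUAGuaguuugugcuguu
The miR-99 and miR-10 families are related in sequence beyond the seed and went in opposite directions.
miR-99b: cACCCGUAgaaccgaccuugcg
miR-100: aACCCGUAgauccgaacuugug
miR-10a: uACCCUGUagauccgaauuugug
miR-10b: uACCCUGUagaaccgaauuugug
The next group holds blood miRNAs that were higher in L-1210.
miR-142-3p: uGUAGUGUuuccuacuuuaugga
miR-155: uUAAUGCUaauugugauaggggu
miR-146a: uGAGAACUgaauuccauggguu
miR-181a: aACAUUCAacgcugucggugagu
The last sequences are cases in which near-identical or same-seed miRNAs gave different values.
miR-103: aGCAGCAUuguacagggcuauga
miR-107: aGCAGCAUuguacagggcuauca
miR-16: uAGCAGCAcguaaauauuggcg
miR-497: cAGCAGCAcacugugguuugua
miR-322: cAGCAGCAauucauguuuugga

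The card runs of both lines were even in size and the replicates of a line lay close together. Of 4481 wells, all cards counted, 2380 amplified and 46.9% did not. PYS detected 53.8% ± 0.433 of its miRNA assays (SD, n = 3) and L-1210 48.6% ± 0.726, where an assay counted as detected at a Ct of 35 or less, and an exact two-sided permutation test gave 0.1, its lower limit with 3 replicates a side. A level here is minus the delta Ct, which is a log2 value, against the control RNAs MammU6, snoRNA135 and snoRNA202, averaged over that card of that replicate. Between replicates the SD of a level had a median of 0.268 in PYS and 0.377 in L-1210. The mean of the 3 controls differed between the lines by 0.0611 cycles on card A and 0.283 on card B, but the controls did not move together: snoRNA202 came up later in PYS by 1.10 cycles on card A and 1.09 on card B, and snoRNA135 earlier by 0.748 and 0.521. The design text speaks of PCR in 3 replicates and does not say that they are separate cultures, so the p-values rest on the spread of these replicates alone, and that spread may be technical.

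The defining miRNAs of each label were checked first. In PYS the stem-cell miRNAs of both clusters ran from a mean Ct of 15.7 for miR-295 to 31.5 for miR-291b-3p among the tested members, and the blood marker miR-142-3p came up after Ct 31 in every replicate. In L-1210 miR-142-3p came up between Ct 17.2 and 18.9, and miR-155 and miR-146a were early there too, at a mean Ct of 17.5 and 18.6. The markers of mature lymphocytes were late in this line labelled lymphocytic: miR-150 had a mean Ct of 26.3 against 16.6 in CT-BM, and miR-342-3p 27.1 against 18.6. By contrast miR-181a, known from developing lymphocytes, was higher in L-1210 than in PYS, as given further on. The epithelial list was split, as given further on, and its miR-200a did not pass: it had a mean Ct of 25.1 in PYS and 25.2 in L-1210, and no assay of the keratinocyte miRNA miR-203 was detected in all replicates of either line. Defining markers of several other tissues were also measured in both lines, with endothelial miR-126-3p at a mean Ct of 19.0 in PYS and 18.7 in L-1210.

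The lines differed over most of the miRNAs they expressed, and more assays were higher in PYS than lower. An assay was tested when every replicate present of at least 1 line was detected, which left 349 of 584, with 230 detected in no replicate of either line and 5 in some replicates only. In limma's moderated test with Benjamini-Hochberg adjustment over the 349, 258 assays (73.9%) passed at an adjusted p under 0.05 and a fold of at least 2. Of these 161 were higher in PYS (46.1% of those tested) and 97 lower (27.8%). These shares are the background for the count of each list below. The replicates of the lines did not overlap for 289 assays (82.8%), so a lack of overlap given below for single assays is the common case. The median difference over all tested assays was 0.70 on the log2 scale in favour of PYS, 0.63 on card A and 1.00 on card B. An assay with no signal in 1 line is admitted only through the other, so it had to differ: 65 were detected in PYS alone and 36 in L-1210 alone, and their folds are lower bounds set by Ct 35. Among the 244 detected in every replicate present of both lines, 94 were higher in PYS, 59 lower and 91 did not pass, with a median of 0.53.

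The differences were very large for many assays. At least 100-fold separated the lines for 64 assays higher and 32 lower in PYS, and at least 10000-fold for 16 and 11. Of the 91 assays that did not pass, 86 lay within 1 log2 unit of no difference.

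**Figure D1:**
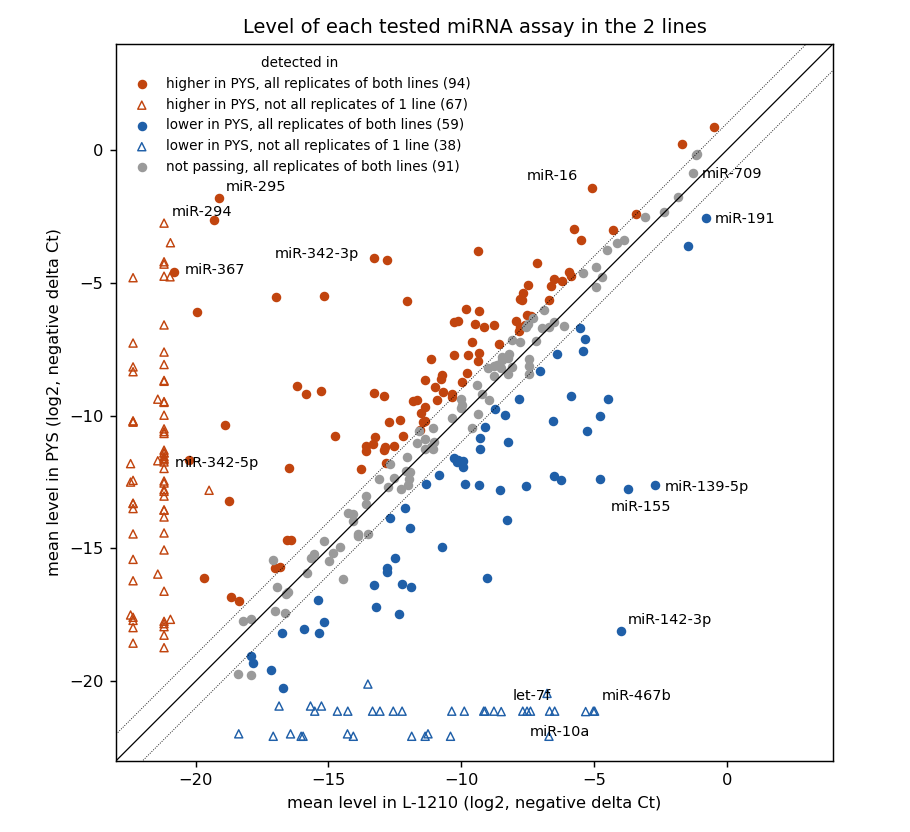
Mean level of each of the 349 tested assays in L-1210 (horizontal axis) and PYS (vertical axis), both as negative delta Ct on a log2 scale; the solid line marks equal levels and the dotted lines a 2-fold difference. Filled circles were detected in every replicate present of both lines, open triangles were not, and the 161 assays higher in PYS (red) and 97 lower (blue) reach far from the line on both sides.

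The reference chosen moves the split between higher and lower assays, though few single calls change direction. Of the 258 calls, 9 changed sign with quantile normalization, and 2 of these passed in the opposite direction. No call changed sign with any other reference tried. With snoRNA202 alone the split was 217 higher and 73 lower, with snoRNA135 alone 121 and 116, and with quantile normalization 118 and 131. These references moved the median of all tested assays by 1.04, -0.81 and -0.81, and the mean of the assays detected in all 12 replicates moved it by -0.36 and MammU6 alone by -0.14. Under the 3 controls and all 6 other scalings 184 assays passed in the same direction, 111 higher and 73 lower in PYS. The 101 assays detected in 1 line only could pass in 1 direction only, and most of them are among the 184. More assays were thus higher than lower with every reference except quantile normalization.

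**Figure D2:**
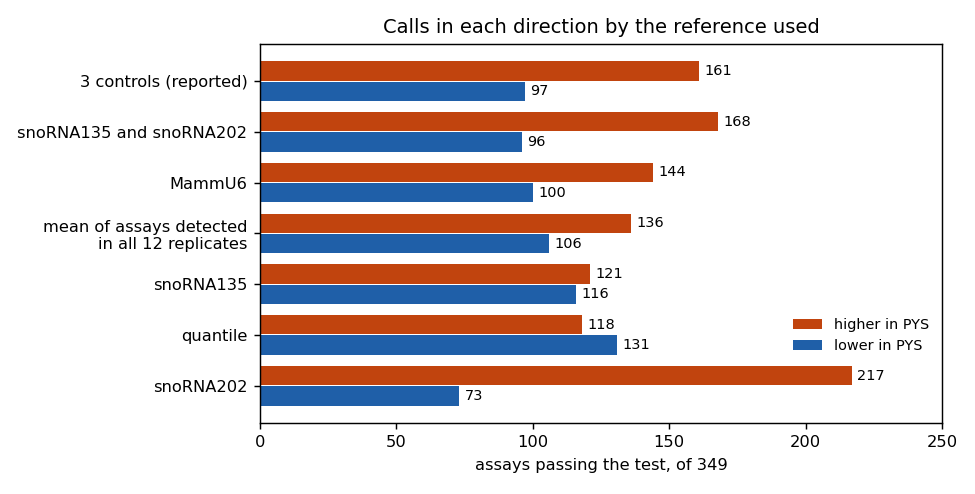
Number of the 349 tested assays that passed higher in PYS (red) or lower in PYS (blue) under each reference, listed on the vertical axis. The count higher in PYS runs from 118 with quantile normalization to 217 with snoRNA202, and quantile normalization is the only reference shown with more assays lower than higher.

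In the miR-290 to miR-295 cluster every tested member was higher in PYS. Of 13 assays on the cards 11 were tested and 11 passed, with a median difference of 15.09 beside 0.70 for all tested assays, and the other 2 were detected in neither line. Of the 11, 9 were detected in PYS alone and so could pass only in that direction. The 7 hairpins with a tested assay lie within 2216 bases at chr7:3218626-3220841. The count was 11 of 11 with each other reference except quantile normalization, where it was 10. Single assays are given below with their replicates in the order 1 to 3.

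miR-295, the last hairpin of the cluster and the member with the earliest Ct, came up at Ct 15.9, 15.4 and 15.7 in PYS and at Ct 31.7, 34.97 and 32.1 in L-1210. The lines did not overlap and the L-1210 values sat near the limit of detection (difference 17.33 ± 0.64, adjusted p = 5.42e-11, where the error is the SE of the fit). Its neighbour miR-294, which shares the seed, came up at Ct 16.8, 16.5 and 16.5 in PYS and was not detected in L-1210, a difference of at least 18.44, the largest of all assays tested. miR-291a-3p, of the same seed, came up at Ct 17.7, 17.0 and 17.4 in PYS and was not detected in L-1210, with no well listed for replicate 3, a difference of at least 17.47. All PYS replicates of these 3 miRNAs lay within 1 cycle of each other, and none overlapped with L-1210. miR-292-3p came up at Ct 16.8, 15.9 and 16.7 in PYS and at Ct 34.0 and 31.8 in L-1210, with no well listed for replicate 2 (difference 16.68 ± 0.44, adjusted p = 1.17e-11). miR-293, whose seed GUGCCGC is different, came up at Ct 19.0, 17.9 and 19.0 in PYS and was not detected in L-1210, at least 16.44 higher. The opposite arms followed, with miR-290-5p at least 15.09 higher, miR-294* at least 14.20 and miR-290-3p at least 12.49. The weakest member was miR-291b-3p, which came up at Ct 32.5, 30.9 and 31.1 in PYS and was not detected in L-1210, at least 13.8-fold higher, a call lost with quantile normalization. In CT-BM miR-294 had a mean Ct of 28.0, and it was not detected in M1.

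The miR-302-367 cluster was also higher in PYS on all 8 of its assays, all of them tested, with a median of 13.00, and 5 of them were detected in PYS alone. Its 5 hairpins lie within 580 bases at chr3:127545228-127545807, and the count was 8 of 8 with every reference tried. miR-367, which carries the seed of the miR-92 family, came up at Ct 18.6, 18.0 and 18.8 in PYS and at Ct 34.9 and 34.8 in L-1210, with no well listed for replicate 3 (difference 16.22 ± 0.43, adjusted p = 1.97e-12). miR-302a came up at Ct 20.2, 19.4 and 20.2 in PYS and at Ct 34.997 and 32.5 in L-1210, with no well listed for replicate 1 (difference 13.85 ± 0.60, adjusted p = 4.71e-09). miR-302d, with the seed of miR-294, came up at Ct 20.6, 20.0 and 20.8 in PYS and was not detected in L-1210, at least 14.61 higher. No replicate of L-1210 came near those of PYS for these 3. miR-302b was detected in replicates 1 and 3 of L-1210, at Ct 34.5 and 34.8, against Ct 19.0, 18.0 and 18.9 in PYS, a difference of 16.20 with the remaining replicate set at Ct 35. The star strands were later, and the smallest difference in the cluster was that of miR-302b*, at least 6.14. Late signals of this cluster and of miR-295 in L-1210, after Ct 31 throughout, stand beside similar ones in the other groups, with miR-367 at a mean Ct of 33.1 in M1.

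**Figure D3:**
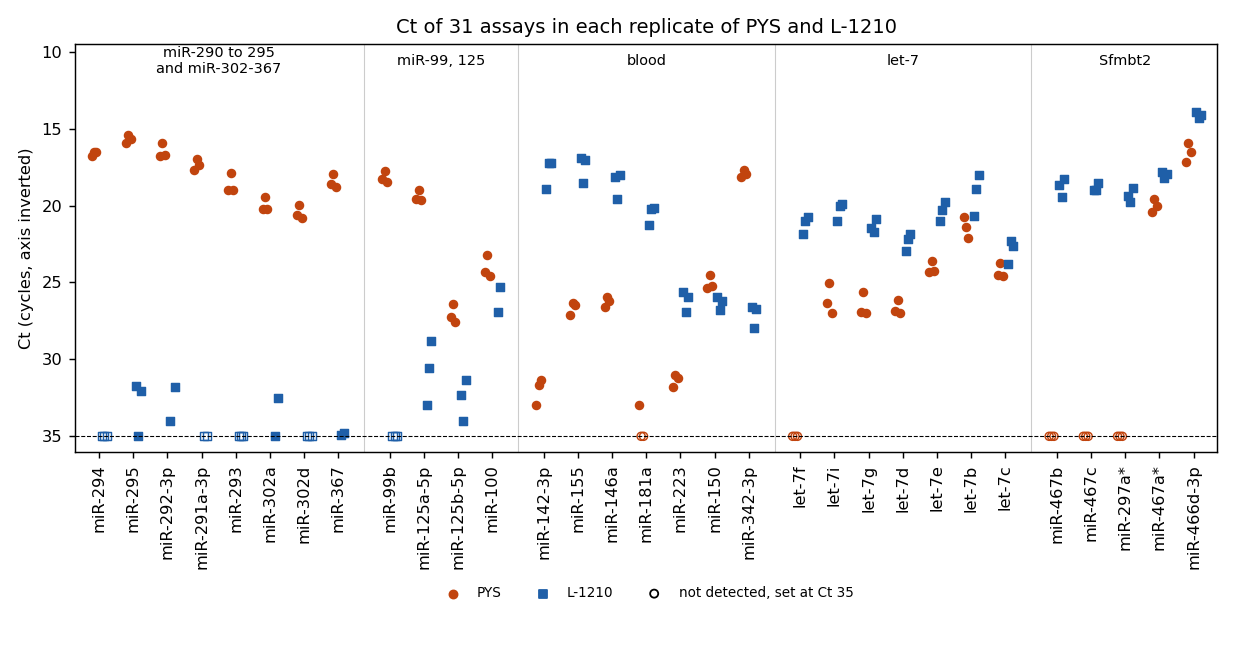
Ct of 31 assays (vertical axis, in cycles, inverted so that higher points mean more template) in each replicate of PYS (red circles) and L-1210 (blue squares), with open symbols for replicates set at Ct 35. PYS lies between Ct 15.4 and 20.8 for the 8 stem-cell miRNAs at the left, L-1210 lies above PYS for the let-7 and Sfmbt2 assays at the right, with an overlap for let-7c, and miR-150 and miR-342-3p lie the other way from the rest of the blood miRNAs.

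Other polycistrons were also higher throughout in PYS. The miR-183, miR-96 and miR-182 cluster, known from sensory organs and several carcinomas, had 4 of 4 assays higher under every reference, 3 of them detected in PYS alone, within 3820 bases at chr6:30165918-30169737. With the 3 controls 46.1% of all tested assays passed higher. miR-182 came up at Ct 19.9, 18.6 and 19.6 in PYS and at Ct 28.9, 29.4 and 28.6 in L-1210, which is 822-fold higher (difference 9.68 ± 0.36, adjusted p = 1.20e-11). miR-183 came up at Ct 23.5, 22.6 and 24.0 in PYS and was not detected in L-1210, at least 3309-fold higher. Its star strand was earlier still and came up at Ct 18.3, 17.6 and 17.3 in PYS and was not detected in L-1210, a difference of at least 17.56. None of the 3 overlapped between the lines.

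The miR-99, miR-100 and miR-125 families, whose hairpins are often paired with let-7 genes, had 7 of 7 tested assays higher under every reference (of 9 on the cards, with 2 in neither line and 3 in PYS alone), with a median of 7.63. The share passing higher among all tested assays was 46.1%. miR-99b came up at Ct 18.3, 17.7 and 18.4 in PYS and was not detected in L-1210, a difference of at least 16.90. miR-125a-5p, from the same 692-base stretch of chromosome 17, came up at Ct 19.6, 19.0 and 19.6 in PYS and at Ct 33.0, 30.6 and 28.8 in L-1210 (difference 11.45 ± 0.81, adjusted p = 1.77e-08). The L-1210 replicates of miR-125a-5p were spread more widely than those of PYS and still stayed clear of them. miR-99a, miR-125b-5p and miR-100 come from other loci and were higher by at least 10.52, by 5.54 and by 2.13. let-7e lies between miR-99b and miR-125a at chr17:17830188-17830879 and came up at Ct 24.4, 23.6 and 24.3 in PYS and at Ct 21.0, 20.3 and 19.8 in L-1210, 12.7-fold higher in L-1210 (difference -3.67 ± 0.43, adjusted p = 2.99e-06). The stretch thus held neighbours that passed in opposite directions.

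Some smaller loci had assays with early Ct in PYS and none in L-1210. miR-296-5p came up at Ct 18.3, 17.1 and 18.7 in PYS and was not detected in L-1210, at least 16.99 higher, and its neighbour miR-298 within 539 bases at chr2:174267047-174267585 was at least 13.59 higher. miR-335-5p and miR-335-3p were at least 589-fold and 2369-fold higher, and miR-676 at least 5869.6-fold. miR-298, miR-335 and miR-676 were chosen after their values were seen. Among assays detected in both lines, miR-184 came up at Ct 25.5, 25.2 and 25.9 in PYS and at Ct 34.5, 33.7 and 34.0 in L-1210 (difference 8.59 ± 0.38, adjusted p = 8.02e-11). miR-196b, from a Hox gene cluster, came up at Ct 24.6, 24.0 and 24.0 in PYS and at Ct 31.4, 33.8 and 33.0 in L-1210 (difference 8.56 ± 0.46, adjusted p = 7.29e-10). miR-30a* came up at Ct 17.5, 16.7 and 17.1 in PYS and at Ct 25.4, 25.7 and 25.3 in L-1210 (difference 8.66 ± 0.22, adjusted p = 2.81e-13). None of these 3 overlapped between the lines.

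The miR-17-92 cluster and its paralogs, which promote proliferation and were abundant in both lines, were modestly higher in PYS on most assays that passed and lower on 3. Of 21 assays 20 were tested, 12 passed higher, 3 lower and 5 did not pass. The median was 1.23, beside 0.70 for all tested assays, of which 46.1% passed higher and 27.8% lower. The count higher in the list ran from 4 with quantile normalization to 17 with snoRNA202. miR-19b, the most abundant miRNA of both lines by level, came up at Ct 13.4, 12.3 and 13.3 in PYS and at Ct 14.5, 14.3 and 14.0 in L-1210 (difference 1.35 ± 0.26, adjusted p = 2.85e-04), a call that was lost with snoRNA135 alone and with quantile normalization. miR-20a came up at Ct 13.9, 13.0 and 14.0 in PYS and at Ct 16.0, 15.6 and 14.9 in L-1210, 3.78-fold higher (difference 1.92 ± 0.27, adjusted p = 1.98e-05). miR-17 came up at Ct 14.4, 13.6 and 14.1 in PYS and at Ct 14.7, 15.5 and 14.5 in L-1210 and fell just short of the 2-fold minimum (difference 0.98 ± 0.21, adjusted p = 8.71e-04). The replicates of the lines did not overlap for any of these 3, as for 82.8% of all tested assays. The differences of miR-17 and of miR-106a, which did not pass with the 3 controls, changed sign with quantile normalization.

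The 3 assays that were lower in PYS, miR-18b, miR-20b* and miR-92a*, were not detected there. miR-18b came up at Ct 29.0, 28.0 and 27.2 in L-1210, at least 116-fold higher in L-1210, and miR-20b* came up at Ct 28.8, 28.6 and 28.4 in L-1210, at least 69.6-fold higher. miR-92a* came up at Ct 28.9, 28.1 and 29.0 in L-1210, at least 66.2-fold higher. All 3 were detected in L-1210 alone of the 4 groups. The genes of miR-18b and miR-20b lie with miR-106a within 455 bases at chrX:52742113-52742567, the paralog cluster on the X chromosome. The assays for the main strands of that cluster did not follow, with a difference of 0.62 for miR-20b and 0.96 for miR-106a, neither passing. Their sequences are close to those of miR-20a and miR-17, and whether these assays also read those paralogs was not tested. The rat assay for miR-20b-5p came up at Ct 22.8, 21.7 and 22.3 in PYS and at Ct 17.3, 17.3 and 16.8 in L-1210, 29.4-fold higher in L-1210 (difference -4.88 ± 0.22, adjusted p = 1.22e-10), unlike the mouse assay.

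The family of miR-15 and miR-16, known to target cyclins and Bcl2, had 8 of 8 assays higher in PYS with a median of 2.67, and 6 to 8 under the other references. Over all tested assays 46.1% passed higher and 27.8% lower. miR-16 came up at Ct 15.6, 15.0 and 15.3 in PYS and at Ct 18.4, 19.9 and 18.3 in L-1210, 12.6-fold higher (difference 3.66 ± 0.26, adjusted p = 1.90e-08). miR-195 came up at Ct 20.0, 19.2 and 20.3 in PYS and at Ct 24.0, 23.9 and 23.1 in L-1210 (difference 3.86 ± 0.26, adjusted p = 9.92e-09), and miR-497, its neighbour within 419 bases at chr11:70234717-70235135, came up at Ct 23.4, 22.8 and 23.6 in PYS and was not detected in L-1210, with no well listed for replicate 2, at least 4236-fold higher. miR-322 shares the seed AGCAGCA with them and was lower in PYS: it came up at Ct 26.5, 25.8 and 27.0 in PYS and at Ct 23.9, 24.0 and 23.1 in L-1210 (difference -2.71 ± 0.21, adjusted p = 4.53e-08). Its cluster on the X chromosome, with miR-503, miR-542 and miR-450, had 6 of 7 tested assays lower in PYS, and 6 or 7 under the other references (of 10 on the cards, 3 in neither line). There miR-542-5p was 23.9-fold and miR-322* 17.2-fold higher in L-1210, and miR-503 differed by 0.09 and did not pass.

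The blood miRNAs were split between the lines. Of 11 assays in the list 9 were tested, 6 were lower in PYS and 3 higher, with a median of -5.13, and 2 were detected in neither line. miR-142-3p came up at Ct 32.9, 31.6 and 31.4 in PYS and at Ct 18.9, 17.2 and 17.2 in L-1210 (difference -14.12 ± 0.54, adjusted p = 1.80e-11), and miR-142-5p was not detected in PYS and came up at Ct 24.0, 23.9 and 23.2 in L-1210, at least 2433-fold higher in L-1210. miR-155 came up at Ct 27.1, 26.3 and 26.5 in PYS and at Ct 16.9, 18.5 and 17.0 in L-1210, 540.3-fold higher in L-1210 (difference -9.08 ± 0.30, adjusted p = 4.40e-12). miR-146a came up at Ct 26.6, 26.0 and 26.2 in PYS and at Ct 18.2, 19.6 and 18.0 in L-1210, 195-fold higher (difference -7.61 ± 0.27, adjusted p = 6.74e-12). L-1210 lay well ahead of PYS for these miRNAs in every replicate, and PYS was not free of miR-155 and miR-146a, with a mean Ct of 26.6 and 26.3.

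miR-223, the granulocyte miRNA, came up at Ct 31.8, 31.0 and 31.2 in PYS and at Ct 25.6, 26.9 and 26.0 in L-1210, 35.01-fold higher in L-1210 (difference -5.13 ± 0.28, adjusted p = 1.01e-09), beside a mean Ct of 13.5 in CT-BM. The miRNAs known from mature lymphocytes, miR-342 and miR-150, went the other way. miR-342-3p came up at Ct 18.1, 17.7 and 18.0 in PYS and at Ct 26.6, 28.0 and 26.7 in L-1210, 599-fold higher in PYS (difference 9.23 ± 0.25, adjusted p = 5.14e-13), and miR-342-5p came up at Ct 25.8, 25.0 and 26.0 in PYS and was not detected in L-1210. miR-150 came up at Ct 25.4, 24.5 and 25.2 in PYS and at Ct 26.0, 26.8 and 26.2 in L-1210, 2.56-fold higher in PYS (difference 1.36 ± 0.23, adjusted p = 1.13e-04), a call that was lost with snoRNA135 alone and with quantile normalization. The 3 blood-list assays higher in PYS all come from miR-342 and miR-150.

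The miR-181 family was lower in PYS on 3 of 3 assays under every reference, 2 of them detected in L-1210 alone. miR-181a came up at Ct 33.0 in 1 PYS replicate and was not detected in replicates 2 and 3, and came up at Ct 21.3, 20.3 and 20.2 in L-1210 (difference -13.70 ± 0.56, adjusted p = 4.17e-11), and miR-181c was at least 479.6-fold higher in L-1210. miR-139-5p, which blood and neural tissue express, came up at Ct 27.0, 26.0 and 26.5 in PYS and at Ct 16.4, 17.0 and 16.1 in L-1210, 980.4-fold higher in L-1210 (difference -9.94 ± 0.23, adjusted p = 1.25e-13). It was the largest difference toward L-1210 after miR-142-3p among assays detected in all replicates of both lines, and miR-139-3p of the same hairpin was not detected in PYS (difference of -14.46 at the Ct limit).

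The let-7 family was lower in PYS on nearly every tested assay. Of 16 assays 12 were tested, 10 were lower, 1 higher and 1 did not pass, beside 27.8% lower and 46.1% higher over all tested assays. The family median was -3.97, and 3 of its assays were detected in L-1210 alone. The count lower was 8 with snoRNA202 alone, where let-7b and let-7c lost their calls, and 10 or 11 with the other references. let-7f was not detected in PYS and came up at Ct 21.9, 21.0 and 20.7 in L-1210, a difference of -13.74 at the Ct limit. let-7a, which differs from let-7f by G12A (let-7a base, position from the 5′ end, let-7f base), was not detected in PYS and came up at Ct 23.8 and 22.0 in L-1210, with no well listed for replicate 1. The let-7a assay was also not detected in any of the 3 CT-BM replicates, although let-7f came up there at a mean Ct of 22.9.

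Other let-7 members were present in PYS at lower levels. let-7i came up at Ct 26.4, 25.0 and 27.0 in PYS and at Ct 21.0, 20.0 and 19.9 in L-1210, 54.5-fold higher in L-1210 (difference -5.77 ± 0.36, adjusted p = 3.74e-09). let-7g came up at Ct 26.9, 25.6 and 27.0 in PYS and at Ct 21.5, 21.7 and 20.9 in L-1210, 34.2-fold higher (difference -5.10 ± 0.24, adjusted p = 1.65e-10). let-7d was 19.4-fold higher in L-1210. None of these overlapped between the lines. let-7c came up at Ct 24.5, 23.7 and 24.6 in PYS and at Ct 23.8, 22.3 and 22.7 in L-1210, only 2.45-fold higher in L-1210 (difference -1.29 ± 0.46, adjusted p = 0.0195), and let-7b was 4.42-fold higher with an SE of 0.71 log2 units (adjusted p = 0.0138). Replicates of the lines overlapped in Ct for let-7c and did not for let-7b, where the latest L-1210 replicate nearly met the earliest of PYS, and neither overlapped in level. The call of let-7b was lost without replicate 2 or 3 of L-1210, at -1.77 and -1.79, and that of let-7c without replicate 1 of PYS or 2 of L-1210, at -1.20 and -0.74. let-7c-1*, from the other arm of a let-7c hairpin, was the exception in direction: it came up at Ct 31.7, 30.5 and 29.3 in PYS and was not detected in L-1210, at least 27.2-fold higher in PYS, a call that was lost with quantile normalization.

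The Sfmbt2 locus, an imprinted gene whose intron holds many repeated miRNA hairpins, had the most negative median of the 27 lists. Of 18 assays 12 were tested and 12 were lower in PYS, beside 27.8% of all tested assays. The list median was -12.17, 9 of the 12 were detected in L-1210 alone, and 6 assays were detected in neither line. The count was 11 with snoRNA202 alone and 12 with the other references. miR-467b was not detected in PYS and came up at Ct 18.6, 19.4 and 18.3 in L-1210, a difference of -16.16 at the Ct limit, the most negative of all assays tested. miR-467c was not detected in PYS and came up at Ct 19.0, 19.0 and 18.5 in L-1210, and miR-297a* was not detected in PYS and came up at Ct 19.4, 19.8 and 18.8 in L-1210. All 3 were thus undetected in PYS and came up before Ct 20 in every L-1210 replicate.

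Some assays of the same families were detected in PYS too. miR-466d-3p, among the 6 most abundant assays of L-1210, came up at Ct 17.2, 15.9 and 16.5 in PYS and at Ct 13.9, 14.3 and 14.1 in L-1210, 4.43-fold higher in L-1210 (difference -2.15 ± 0.39, adjusted p = 2.27e-04). miR-467a* came up at Ct 20.4, 19.6 and 20.0 in PYS and at Ct 17.8, 18.2 and 17.9 in L-1210, 3.38-fold higher (difference -1.76 ± 0.28, adjusted p = 6.81e-05), although miR-467a from the other arm was not detected in PYS, and the call of miR-467a* was lost with snoRNA202 alone. miR-467b* was 9.72-fold higher in L-1210. In M1, where no replicate detected miR-467a, miR-467b, miR-467c, miR-467d and miR-467e, miR-466d-3p had a mean Ct of 14.4 and miR-467a* 17.7. The main strands of miR-467b and miR-467c had a mean Ct of 24.5 and 24.6 in CT-BM, later than in L-1210, while miR-297a*, miR-297b-5p, miR-297c and miR-669a were detected in L-1210 alone of the 4 groups. Many of these hairpins are near-identical copies, and how the assays divide them was not tested.

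The Dlk1-Dio3 locus on chromosome 12, another imprinted domain with a large miRNA cluster, was mostly silent in both lines. Of 62 assays 46 were detected in neither line, and of the 16 tested 13 were lower in PYS, none higher and 3 did not pass, with a median of -3.19 and 7 detected in L-1210 alone. The count lower ran from 10 to 14 with the other references, and with snoRNA202 alone 1 assay passed as higher. miR-127 was not detected in PYS, with no well listed for replicate 2, and came up at Ct 29.7, 29.0 and 28.6 in L-1210, at least 51.1-fold higher in L-1210. miR-411 came up at Ct 31.9, 31.96 and 32.3 in PYS and at Ct 29.3, 29.8 and 28.4 in L-1210, 7.14-fold higher (difference -2.84 ± 0.22, adjusted p = 8.67e-08). miR-376c was 11.7-fold higher (difference -3.55 ± 0.25, adjusted p = 1.61e-08). Most of these signals were late in both lines, and a pair of early ones stood out: miR-667 was not detected in PYS, with no well listed for replicate 1, and came up at Ct 22.8 and 21.8 in L-1210, with no well listed for replicate 1, and miR-673-5p was not detected in PYS and came up at Ct 23.2 and 22.7 in L-1210, with no well listed for replicate 2. miR-494 differed by 0.70 and did not pass. miR-654-3p lies at this locus outside the list and was late in PYS alone: it came up at Ct 31.0 and 32.6 in PYS, with no well listed for replicate 1, and was not detected in L-1210.

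Some miRNAs known for other roles also separated the lines. miR-10a, from a Hox cluster, was not detected in PYS and came up at Ct 20.8, 20.3 and 19.8 in L-1210, a difference of -14.65 at the Ct limit. miR-10b, which differs from it by U12A (miR-10a base, position, miR-10b base), was not detected in PYS and came up at Ct 28.0, 27.2 and 25.4 in L-1210. Both were thus detected in L-1210 and not in PYS, opposite to miR-196b of the same group of loci. miR-34a, a target of p53, was not detected in PYS and came up at Ct 22.0, 21.4 and 21.1 in L-1210, at least 11198-fold higher in L-1210, while of the other 5 tested assays of the miR-34 and miR-449 family miR-34b-3p was lower (difference -1.78 ± 0.27, adjusted p = 3.98e-05, lost with snoRNA202 alone), miR-449c higher (difference 1.14 ± 0.31, adjusted p = 0.00426) and 3 did not pass. The call of miR-449c was lost with 3 of the 6 other references and its sign changed with quantile normalization. It was also lost without replicate 2 of PYS, at 0.81.

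miR-31 came up at Ct 26.4, 26.0 and 26.5 in PYS and at Ct 20.0, 20.5 and 19.7 in L-1210, 71.2-fold higher in L-1210 (difference -6.15 ± 0.30, adjusted p = 2.25e-10), and miR-31* was 49.7-fold higher. The miR-29 family, which targets collagens and DNA methyltransferases, was lower in PYS on its 3 main strands, with folds of 40.6 for miR-29a, 8.55 for miR-29b and 2.34 for miR-29c, whose call was lost with snoRNA202 alone. miR-29a came up at Ct 24.7, 23.9 and 24.8 in PYS and at Ct 19.1, 19.4 and 18.6 in L-1210 (difference -5.35 ± 0.20, adjusted p = 1.58e-11). Among miRNAs known from neurons, miR-9 and miR-138 went opposite ways. miR-9 came up at Ct 24.2, 23.1 and 24.4 in PYS and at Ct 19.1, 18.8 and 17.9 in L-1210 (difference -5.24 ± 0.53, adjusted p = 7.90e-07), and miR-9* was 134-fold higher in L-1210. miR-138 came up at Ct 18.0, 17.3 and 17.7 in PYS and at Ct 22.8, 23.8 and 23.0 in L-1210 (difference 5.57 ± 0.24, adjusted p = 5.44e-11), and miR-138* was 103-fold higher in PYS. The neuronal miR-124 and miR-137 were detected in no replicate of either line.

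The epithelial list, with the miR-200 family, was split. Of 11 assays 9 were tested, 3 were higher in PYS, 2 lower and 4 did not pass, beside 46.1% higher and 27.8% lower over all tested assays. With snoRNA202 alone 6 of the list were higher. Without replicate 2 or replicate 3 of PYS, 7 assays could be tested and 1 was higher. miR-200b came up at Ct 23.9, 23.5 and 24.0 in PYS and at Ct 23.6, 23.3 and 22.7 in L-1210 and did not pass (difference -0.55 ± 0.40, adjusted p = 0.216), and its replicates overlapped in Ct. miR-200c came up at Ct 25.7, 25.0 and 25.9 in PYS and at Ct 23.5, 25.0 and 23.4 in L-1210, 2.92-fold higher in L-1210 (difference -1.55 ± 0.25, adjusted p = 8.52e-05), a call lost with snoRNA202 alone. miR-205 was detected late and in PYS alone, a call lost with quantile normalization: it came up at Ct 32.9 and 32.3 in PYS, with no well listed for replicate 1, and was not detected in L-1210. miR-141 and miR-141*, the arms of 1 hairpin, gave opposite patterns: miR-141 was not detected in PYS, with no well listed for replicate 2, and came up at Ct 29.6, 29.8 and 29.0 in L-1210, and miR-141* came up at Ct 25.2, 25.8 and 25.2 in PYS and was not detected in L-1210, with no well listed for replicate 2.

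Of the mesenchymal list 3 of 8 assays were tested. miR-145 came up at Ct 28.0, 27.1 and 28.0 in PYS and was not detected in L-1210, at least 166-fold higher in PYS, and miR-199a-3p came up at Ct 28.9, 27.7 and 29.9 in PYS and at Ct 24.8, 24.8 and 23.9 in L-1210, 19.0-fold higher in L-1210 (difference -4.25 ± 0.36, adjusted p = 1.02e-07). The erythroid miR-451 came up at Ct 27.6, 26.7 and 28.0 in PYS and was not detected in L-1210, at least 199-fold higher in PYS. The muscle list had 3 of 4 tested assays higher in PYS, beside 46.1% of all tested assays. The 3 were miR-499, higher by at least 739.7-fold, miR-1, by at least 10.2-fold, and miR-206, by 3.57-fold. With quantile normalization miR-206 passed as lower in PYS instead (difference -1.56, adjusted p = 0.0369). The mouse assay for miR-1 was not detected in L-1210, whereas the rat assay for miR-1 came up at Ct 31.0 and 29.9 in L-1210, with no well listed for replicate 1. The rat assay did not pass, with a difference of -0.79, opposite in sign to that of the mouse assay, at least 3.36. miR-375, known from pancreatic islets, came up at Ct 25.1, 24.7 and 25.3 in PYS and at Ct 27.9, 27.5 and 26.8 in L-1210, 5.43-fold higher in PYS (difference 2.44 ± 0.31, adjusted p = 1.31e-05). No assay of the liver marker miR-122 was detected in either line.

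The remaining lists moved less or held few tested assays. The miR-130 and miR-301 family had 3 of 5 assays higher in PYS and none lower, beside 46.1% higher and 27.8% lower over all tested assays. With the other references 2 to 5 of the family were higher. miR-301a came up at Ct 18.3, 17.5 and 18.6 in PYS and at Ct 21.6, 20.9 and 20.4 in L-1210, with no overlap between the lines (difference 2.91 ± 0.33, adjusted p = 2.25e-06). The X-linked cluster of miR-532, miR-188, miR-362 and miR-500 had 5 of 7 tested assays higher and none lower, and 2 to 7 higher with the other references. miR-188-5p was 2.69-fold higher in PYS, a call lost with snoRNA135 alone. The X-linked cluster known from germ cells had 5 of 19 assays tested, of which 3 were higher, all of them detected in PYS and not in L-1210, and 13 were detected in neither line. Without replicate 2 of PYS, 2 of its assays could be tested and 0 passed. Its miR-741 came up at Ct 30.0 and 30.6 in PYS, with no well listed for replicate 3, and was not detected in L-1210, a late signal. miR-222, known from blood stem cells and several tumours, came up at Ct 31.8, 31.0 and 32.9 in PYS and at Ct 29.3, 31.0 and 28.9 in L-1210, 4.33-fold higher in L-1210 (difference -2.11 ± 0.36, adjusted p = 1.14e-04), beside a mean Ct of 16.7 in CT-BM and 14.1 in M1, and miR-221 was detected in neither line. Of the Hox list 4 of 8 assays were tested, 2 higher and 2 lower, and of the neural list 4 of 7, also 2 and 2.

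**Figure D4:**
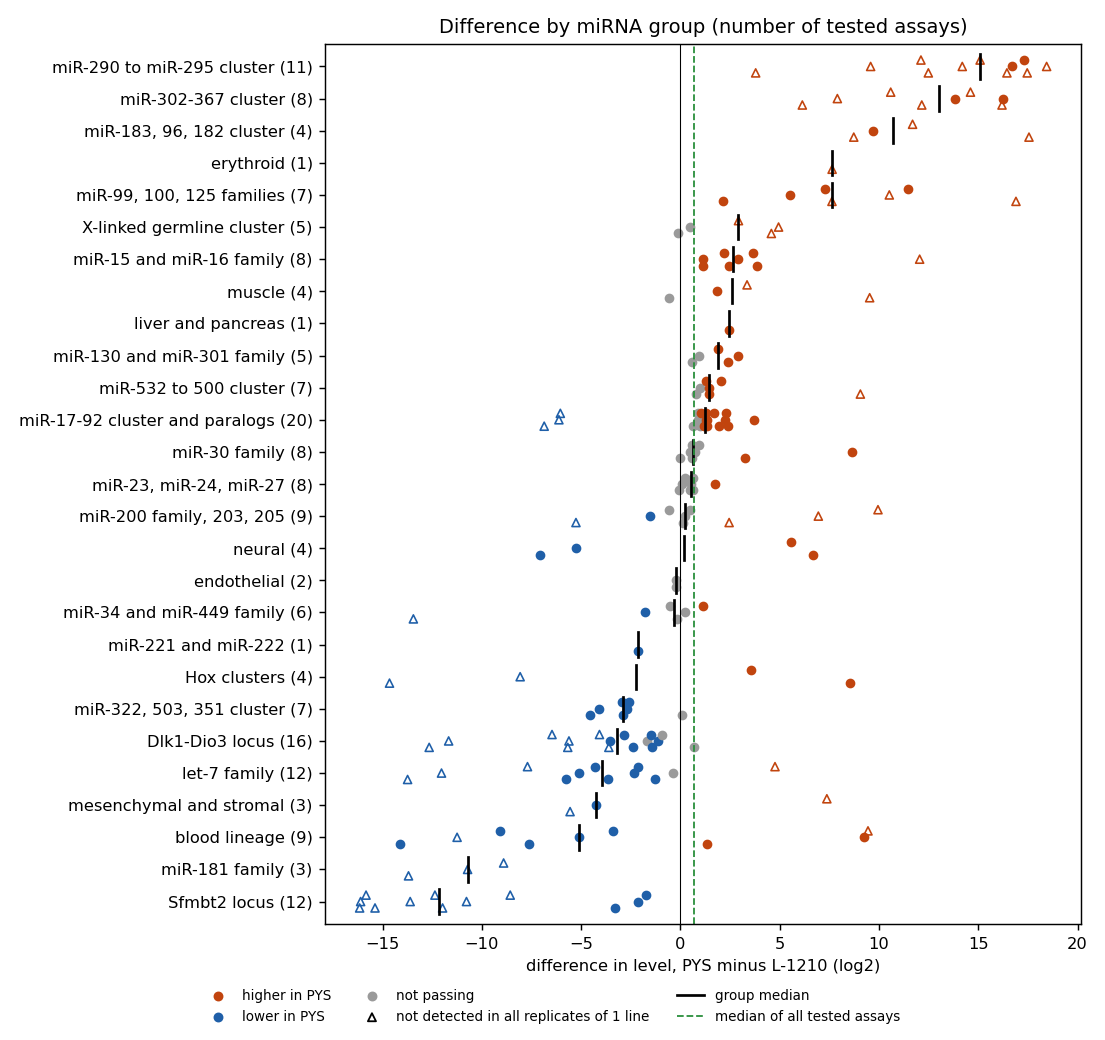
Difference in level between PYS and L-1210 on a log2 scale (horizontal axis, positive when higher in PYS) for the tested assays of each of the 27 lists (vertical axis, with the number tested). Black bars are list medians, the dashed line is the median of all tested assays at 0.70, and the lists run from the Sfmbt2 locus at -12.17 to the miR-290 to miR-295 cluster at 15.09.

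Other lists had few calls. Among the hairpins of miR-23, miR-24 and miR-27, 1 of 8 tested assays passed, miR-24-1* (difference 1.74 ± 0.72, adjusted p = 0.0423, lost without replicate 1 or 3 of PYS or replicate 3 of L-1210, at 1.10, 1.65 and 0.95, and with 4 of the 6 other references), and in the miR-30 family 2 of 8, although 7 and 8 passed higher in PYS with snoRNA202 alone. miR-24 came up at Ct 16.0, 15.2 and 15.7 in PYS and at Ct 15.7, 16.0 and 15.2 in L-1210 (difference 0.07 ± 0.21, adjusted p = 0.757). miR-30e differed by less than its error (difference -0.00 ± 0.21, adjusted p = 0.994). Their replicates overlapped between the lines. Endothelial miR-126-3p came up at Ct 19.3, 18.6 and 19.1 in PYS and at Ct 18.5, 19.5 and 18.2 in L-1210 (difference -0.21 ± 0.22, adjusted p = 0.382), but it passed as lower in PYS with snoRNA135 alone and with quantile normalization, and its sign changed with snoRNA202 alone. miR-21 (difference -0.50 ± 0.38, adjusted p = 0.242) and miR-425 (difference 0.02 ± 0.30, adjusted p = 0.945) also did not pass.

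Of the 6 most abundant assays of each line 4 were shared. By level, the first 6 in PYS were miR-19b (0.88 ± 0.35, SD, n = 3), miR-20a (0.24 ± 0.23), miR-17 (-0.14 ± 0.32), miR-106a (-0.19 ± 0.26), miR-709 (-0.84 ± 0.31) and miR-16 (-1.41 ± 0.28). In L-1210 they were miR-19b (-0.47 ± 0.35), miR-191 (-0.78 ± 0.59), miR-17 (-1.12 ± 0.20), miR-106a (-1.15 ± 0.13), miR-709 (-1.28 ± 0.39) and miR-466d-3p (-1.47 ± 0.50). The neighbours miR-17 and miR-106a differed by less than their SDs in both lines, and levels of separate assays also carry each assay's own efficiency. miR-191, high in many cell types, came up at Ct 16.7, 16.0 and 16.5 in PYS and at Ct 14.0, 15.6 and 14.2 in L-1210, 3.40-fold higher in L-1210 (difference -1.76 ± 0.27, adjusted p = 5.37e-05), a call lost with snoRNA202 alone. miR-709 differed by 0.44 and did not pass.

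Both arms were tested for 81 pairs, and in 44 both passed in the same direction, 31 higher and 13 lower in PYS. Of all tested assays 46.1% passed higher and 27.8% lower. An arm detected in 1 line only could pass in 1 direction only, and for pairs such as miR-294 and miR-296 this held for both arms. In 20 pairs 1 arm passed, in 12 neither did and in 5 the arms passed in opposite directions. The opposite pairs were miR-141, miR-193, miR-29c, miR-92a and let-7c with their star strands. With every reference both calls of the pair held for miR-141 alone: miR-193, miR-29c and let-7c were lost with snoRNA202 alone, miR-193* and let-7c-1* with quantile normalization, and miR-92a (difference 1.02) with 4 of the 6 other references. miR-92a also fell under 2-fold without replicate 2 or 3 of PYS (0.99 each) or replicate 1 or 3 of L-1210 (0.90 and 0.96). miR-193 was 2.58-fold higher in L-1210 and miR-193* 4.21-fold higher in PYS, and both were detected in every replicate of both lines. miR-29c was 2.34-fold higher in L-1210, whereas miR-29c* came up at Ct 26.5, 26.2 and 26.0 in PYS and was not detected in L-1210. In other pairs the arms differed in size: miR-30a differed by 0.95 and miR-30a* by 8.66, and miR-99b by at least 16.90 and miR-99b* by 7.29. The arms of a hairpin can sit on different cards.

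**Figure D5:**
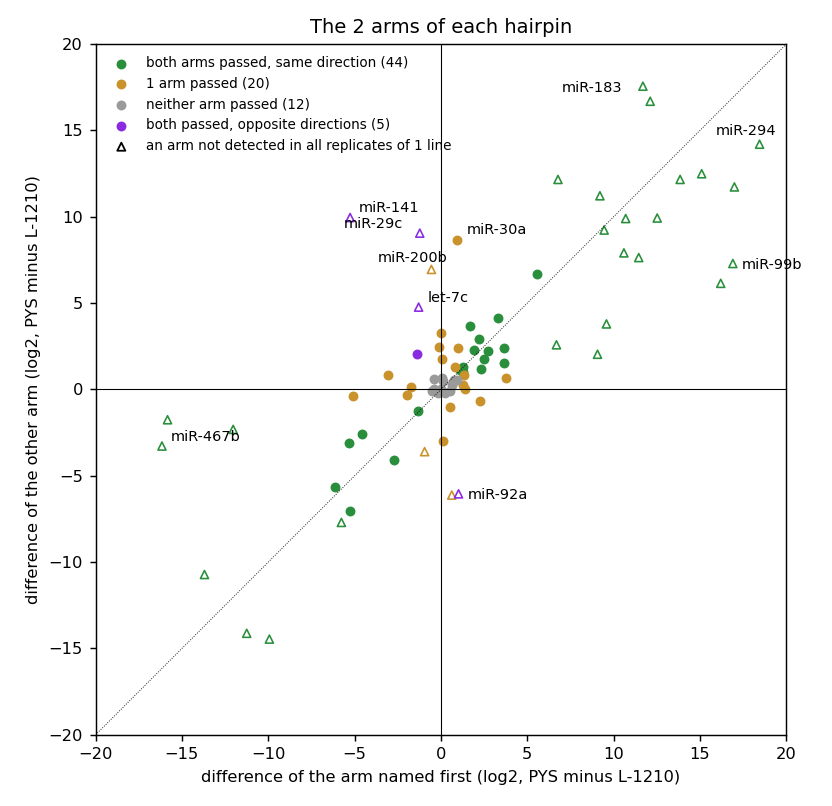
Difference between PYS and L-1210 on a log2 scale for the 2 arms of each of 81 hairpin pairs, with the unstarred or 5p arm on the horizontal axis and the other arm on the vertical axis. Green pairs (44) passed in the same direction and lie in the quadrants of equal sign around the dotted line of equal difference, purple pairs (5) passed in opposite directions, and open triangles mark pairs with an arm that was not detected in all replicates of 1 line.

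Hairpin genes that lie next to each other on the chromosome were compared as well. On GRCm38.p6, 253 of 325 tested mouse assays could be placed by 1 hairpin gene, and hairpins within 10000 bases formed 25 clusters. In 12 the assays that passed were all higher in PYS, in 8 all lower, in 3 mixed and in 2 none passed. All tested assays passed in 1 direction in 10 of the 25, and 5 of the one-direction clusters rest on 1 passing assay. Of all tested assays 73.9% passed. Among the 10, the Sfmbt2 locus and the Dlk1-Dio3 locus each appear as more than 1 cluster. The assays of miR-296 and miR-298 were all detected in PYS and not in L-1210, so they could pass only as higher. The mixed clusters were miR-99b with let-7e and miR-125a, miR-141 with miR-200c, and the Dlk1-Dio3 stretch from miR-379 to miR-544. Neighbours can come from 1 transcript, so their assays are not independent.

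Of 22 seed families with more than 1 sequenced assay, all tested members passed in 1 direction in 11, and 2 held calls in both directions. Of all tested assays 73.9% passed. Only assays that were looked up and matched to a sequence, 93 of 100, are considered here, so these counts depend on which were looked up. Tested relatives such as miR-30b and miR-34c were not looked up and are left out. miR-10a and miR-10b, which form 1 of these families, were detected in L-1210 and not in PYS and could pass only as lower. All 5 sequenced members with the seed AAGUGCU were higher in PYS, and 8 of 9 with the let-7 seed were lower and 1 was not tested. In the AGCAGCA family 5 were higher and miR-322 lower, and in the AAAGUGC family 3 were higher and 3 did not pass. miR-103 and miR-107 differ by G22C (miR-103 base, position, miR-107 base) and both passed higher in PYS by very different amounts. miR-103 came up at Ct 21.3, 20.4 and 21.6 in PYS and at Ct 23.5, 23.9 and 22.8 in L-1210, 5.11-fold higher (difference 2.35 ± 0.21, adjusted p = 1.87e-07), whereas miR-107 came up at Ct 25.8, 24.9 and 25.5 in PYS and was not detected in L-1210, at least 804-fold higher. miR-107 was present in CT-BM and M1 (mean Ct 27.5 and 23.6), and L-1210 was the group where it was not detected. In the miR-148 and miR-152 family all 3 members were higher, from 1.71 for miR-148b, lost with snoRNA135 alone, to at least 9.79 for miR-148a.

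Some miRNAs had a rat and a mouse assay, and the pairs gave like values for some and unlike values for others. For miR-224 the mouse assay gave at least 8.40 and the rat assay at least 8.34. For miR-190b the mouse assay came up at Ct 25.6, 24.6 and 24.9 in PYS and at Ct 24.8, 24.7 and 24.1 in L-1210 and did not pass (difference -0.18 ± 0.19, adjusted p = 0.387), and the rat assay, on the other card, came up at Ct 26.2, 25.2 and 26.1 in PYS and at Ct 29.9, 30.9 and 30.0 in L-1210 (difference 4.52 ± 0.23, adjusted p = 4.59e-10). miR-190b, miR-224, miR-148a and miR-107 were chosen after their values were seen.

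Set beside the other 2 groups, the lines differed in which of them stood alone. Detected in every replicate of PYS, CT-BM and M1 and in none of L-1210 were 8 assays: miR-107, miR-145, miR-190, miR-29c*, miR-340-3p, miR-340-5p, miR-676* and miR-701. Detected in L-1210, CT-BM and M1 and not in PYS were 13, among them let-7f, miR-10a, miR-142-5p, miR-181c, miR-149 and miR-667. PYS alone of the 4 groups detected 37 assays and L-1210 alone 8. miR-340-5p came up at Ct 24.5, 23.8 and 24.8 in PYS and was not detected in L-1210, beside a mean Ct of 19.7 in M1. miR-149 was not detected in PYS, with no well listed for replicate 2, and came up at Ct 24.5, 23.6 and 23.5 in L-1210, beside 19.0 in M1 and 19.1 in CT-BM. Each of the pair was undetected in 1 line and detected in the other 3 groups.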

How the data were processed

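Total RNA of each replicate was reverse transcribed, preamplified and run on TaqMan low density array cards A and B for 40 cycles, per the labels' protocols. The deposited table gives a Ct per well and an average Ct by the authors, which equalled the mean of the wells within 0.001 in all 3543 assay and card values whose wells all amplified. The software, the threshold setting and the limit of detection are not given in the sources used here. Each well was tied to its line, replicate and card by the sample name in the table.

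An undetermined well and a Ct above 35 were set at 35 and counted as not detected, so a fold against a line with no detected replicate is a lower bound. The level of an assay is its Ct subtracted from the average Ct of the controls MammU6, snoRNA135 and snoRNA202 of its card. limma 3.58.1 in R 4.3.3 compared the lines in a fit of all 12 joined replicates of the 4 groups, with p-values adjusted over 349 assays. The spread is thus shared with CT-BM and M1. Values at the limit of 35 have no spread of their own, so SEs of assays undetected in 1 line are too small. A call needs an adjusted p under 0.05 and a fold of at least 2. The script was tested on simulated data in which no value was fixed at the Ct limit. That test does not cover assays undetected in 1 line. Tables and figures were made with Python 3.11.15, pandas 2.3.3, numpy 2.4.6, SciPy 1.17.1 and matplotlib 3.10.9.

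The assays named are the 12 largest differences in each direction among called assays detected throughout and without overlap, the 8 largest lower bounds each way, the 6 highest levels in each line and up to 4 of each of 27 lists by size of the test statistic. Further members were named to complete a list's account. The members and lists were chosen with earlier results of these data known. Alternatives covered the reference, the Ct limit, the detection filter, the samples in the fit, the variance prior, the fold minimum, the replicate block, the cards taken separately and dropping replicates in turn.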

Additional observations from a re-analysis of the deposited data

How the results depend on the processing

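Against 258 calls with all replicates, the fits that left out 1 replicate made 243 to 261 calls, 149 to 171 higher and 89 to 98 lower in PYS, and kept 243 to 249 of the 258. Requiring detection in every replicate of both lines left 151, 93 higher and 58 lower. Card A alone had 104 higher, and card B alone 83 in all, 56 higher and 27 lower, both from fewer assays. A Ct limit of 32 gave 247 and of 40 gave 263. The difference in the share of assays detected, 5.20 percentage points, lay between 4.81 and 5.53 when a replicate was left out. The replicate numbers did not pair the samples: the deviations of same-numbered replicates correlated at 0.013, -0.0073 and -0.127 over 218 assays. Replicates of different number ranged more widely, from -0.248 (PYS 2 with L-1210 1) to 0.358 (PYS 2 with L-1210 3). With the replicate number as a block 256 assays passed, 159 higher and 97 lower, and of the named calls that of miR-24-1* was lost (1.60, adjusted p = 0.118). It was also lost with only the 6 replicates of both lines, with robust and trended moderation and with assays detected throughout.

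Some differences took the opposite sign with another reference. With MammU6 alone the differences were -0.11 for miR-200a, -0.16 for miR-24, -0.21 for miR-425, -0.016 for miR-465a-3p and -0.14 for miR-503. With the mean of the assays that all 12 replicates detected they were -0.11 for miR-200a, -0.15 for miR-24, -0.17 for miR-24-2*, -0.21 for miR-425, -0.14 for miR-503 and -0.39 for miR-709. Under snoRNA135 alone they were -0.69 for miR-200a, -0.18 for miR-20b, -0.73 for miR-24, -0.15 for miR-24-2*, -0.27 for miR-27a, -0.17 for miR-27b, -0.071 for miR-30b, -0.79 for miR-425, -0.23 for miR-465a-3p, -0.11 for miR-494, -0.72 for miR-503 and -0.37 for miR-709. Under quantile normalization they were -0.10 for miR-106a, -0.58 for miR-130a, -0.12 for miR-17, -0.61 for miR-200a, -1.56 for miR-206, -0.58 for miR-20b, -0.31 for miR-24, -0.11 for miR-24-2*, -0.27 for miR-30b, -0.82 for miR-425, -1.001 for miR-449c, -1.32 for miR-465a-3p, -0.75 for miR-494 and -1.53 for miR-503. Under snoRNA202 alone the change was to positive, with 0.83 for miR-126-3p, 0.84 for miR-126-5p, 0.42 for miR-133a, 0.62 for miR-190b, 0.49 for miR-200b, 0.55 for miR-21, 1.04 for miR-30e, 0.54 for miR-449a and 0.46 for the rat assay for miR-1, and snoRNA135 with snoRNA202 gave 0.12 for miR-30e. Leaving out single replicates turned the sign of assays that lay near 0: the difference ran from -0.049 to 0.24 for miR-24, from -0.081 to 0.13 for miR-30e, from -0.24 to 0.25 for miR-425 and from -0.12 to 0.28 for miR-503. Most of these had not passed with the 3 controls, and the calls of miR-130a, miR-206 and miR-449c had.

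Late Ct limits the weakest assays, since a well near Ct 35 starts from few molecules, and the number of replicates limits the precision of all.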
